A study of Mus musculus with 6 samples.

Results

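Cytosolic ribosomal protein genes were examined as 1 group in RNA-Seq data of the embryonic mouse face. The members were taken by name, as the genes called Rpl or Rps with a number and at most a short suffix, together with *Rplp0*, *Rplp1*, *Rplp2* and *Rpsa*. Processed pseudogenes with -ps in the name and the Rps6k kinases were left out. The rule found 88 of the 38553 genes in the deposited table. Of these, 31 encode proteins of the 40S subunit, 43 encode proteins of the 60S subunit and 3 encode the P-stalk proteins. Another 6 are paralogs (*Rpl3l*, *Rpl7l1*, *Rpl10l*, *Rpl22l1*, *Rpl39l* and *Rps27l*), and 5 are pseudogenes in GENCODE M21 that carry a gene-like name (*Rps3a2*, *Rps3a3*, *Rps4y2*, *Rps12l1* and *Rps12l2*). *Fau* and *Rack1* (listed under its older name *Gnb2l1*) also contribute to the ribosome but fall outside the name rule.

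The study compared 3 control and 3 mutant embryos at E12.5. Controls were *Rbfox2* flox/flox with no Cre, and mutants were *Pax3* Cre/+ : *Rbfox2* flox/flox, so both groups carried the same floxed alleles. Mutants alone carried the Cre insertion at *Pax3*, so its effects and those of *Rbfox2* loss cannot be told apart. Rbfox2 is an RNA-binding protein that regulates alternative splicing, and the *Pax3* Cre knock-in allele acts in neural crest cells and also in paraxial mesoderm and somite derivatives. Poly(A)+ RNA came from microdissected craniofacial tissue, which holds many cell types without Cre activity, so fewer cells of a type and less RNA per cell cannot be told apart in these values.

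A cytosolic ribosome is built from a small 40S and a large 60S subunit, each a core of ribosomal RNA dressed with proteins that are mostly needed in equal numbers. Ribosomal protein mRNAs are among the most abundant messages of growing embryonic cells, and many of them begin with a run of pyrimidines, the 5′ terminal oligopyrimidine (TOP) tract, through which mTOR signalling controls their translation. Loss of 1 copy of several of these genes causes Diamond-Blackfan anaemia in people, often with craniofacial malformations, and neural crest-derived tissue is sensitive to faults in ribosome production. The mouse genome also carries a very large number of processed copies of these genes, because their abundant mRNAs were often reverse transcribed and inserted elsewhere. Such copies matter for RNA-Seq, where a read from a ribosomal protein mRNA can match the gene and its copy almost equally well.

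The sequences of 4 genes and their copies are shown first, because in these genes FPKM in single samples moved opposite to that of a copy. A copy was defined as a gene row other than the member whose transcript matched at least 80% of the member's coding sequence at 90% identity or more. In the coding sequence of *Rpl26* (large subunit, chr11:68901583-68906989, plus strand, GRCm38), the copy *Gm15772* (chr5:3236431-3236868, plus strand) differed at 2 of 435 bases. Both are shown from base 162 to base 191 of the coding sequence, 5′ to 3′, with capitals at a differing base.
Rpl26: agttcaggttgttcgCggacactacaaagg
Gm15772: agttcaggttgttcgTggacactacaaagg

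*Rps18* (small subunit, chr17:33951999-33956001, minus strand) has the copy *Gm10260* (chr13:97760072-97760632, minus strand), annotated as protein coding, with 4 differences in 456 bases. Its second expressed copy, the processed pseudogene *Gm11361* (chr13:61710587-61711371, minus strand), was 94.3% identical over the aligned part. Bases 420 to 449 are shown, with capitals where either copy departs from *Rps18*.
Rps18: ccgcaggggccGAactGtgggtGtatccaa
Gm10260: ccgcaggggccAAactGtgggtGtatccaa
Gm11361: ccgcaggggccGTactAtgggtAtatccaa

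*Rps3a1* (small subunit, chr3:86137940-86142702, minus strand) has the processed pseudogenes *Rps3a2* (chr14:88123017-88123808, minus strand) and *Rps3a3* (chr13:108670603-108671397, plus strand), with 4 and 8 substitutions in 792 bases. Both pseudogenes are themselves members by name. Bases 643 to 672 are shown in the same way.
Rps3a1: gtAaaaatgctgaagaaAcccaagtTtgaa
Rps3a2: gtTaaaatgctgaagaaAcccaagtCtgaa
Rps3a3: gtAaaaatgctgaagaaGcccaagtTtgaa

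*Rps26* (small subunit, chr10:128624534-128626747, minus strand) has *Rps26-ps1* (chr8:107439131-107439579, minus strand), a transcribed processed pseudogene that differed at 2 of 345 bases. Bases 15 to 44 hold 1 of these differences, in capitals.
Rps26: aagaaacaacggtcgCgccaaaaagggccg
Rps26-ps1: aagaaacaacggtcgTgccaaaaagggccg

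These cases are part of a wider set. The coding sequences of 83 members were searched, and 75 had at least 1 copy, with 632 copy rows in all. Of these rows, 622 were pseudogenes and 10 were annotated as protein coding. For 19 members, 24 copies had a coding sequence identical to that of the member. Most copies were listed near 0, and 25 copies of 22 members exceeded an FPKM of 5 in at least 1 sample.

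Values are FPKM, mapped fragments scaled by gene length and by all mapped fragments of the sample, as deposited, so levels can be compared between genes per length. The number of fragments behind a value is unknown. Summed over all genes, FPKM ranged from 528123 to 590174 per sample. Mitochondrially encoded genes summed to 31359 to 47615 in controls and 20706 to 36092 in mutants, with the highest value of each group in replicate 1, and 22 of the 37 were at 0 in every sample. The sum of 4 Y-linked genes was at most 0.217 in the 3 controls and in mutant replicate 3, and 57.7 and 55.5 in mutant replicates 1 and 2, so the sexes were not balanced between the groups. Replicate 1 of each group stood apart from the other samples for most members, and the main results are therefore also given within these sets. *Rbfox2*, the targeted gene, was listed at 58.4, 65.0 and 61.3 FPKM in controls and 38.1, 36.3 and 34.3 in mutants. The groups did not overlap, and the mutant mean was 58.8% of the control mean (log2 fold change -0.75, SE 0.079, adjusted p = 0.138 by limma). *Pax3*, whose locus carries the Cre insertion in mutants, stood at 10.6 ± 1.59 (SD, n = 3) in controls and 8.19 ± 0.536 in mutants. Of 14 markers of cranial mesenchyme, the tissue on the labels, all were tested, and their summed FPKM was 864 to 1119 in controls and 879 to 902 in mutants. By limma, 12 of them had an estimate below 0 and 2 above. Their median log2 fold change was -0.08, where the median over all tested genes was 0.01.

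Ribosomal protein genes filled much of the transcriptome of this tissue. All 77 core members, meaning the 40S, 60S and stalk genes, passed the expression filter, which required an FPKM over 5 in all controls or all mutants. Their mean FPKM over the 6 samples ran from 421 to 2364, with a median of 1069, and 75 of the 77 exceeded 500. Members made up 25 of the 50 genes with the highest mean FPKM and 77 of the highest 200. In total 81 of 88 members were tested among 10061 genes. The plot of FPKM by gene shows the level of each in every sample.

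**Figure D1:**
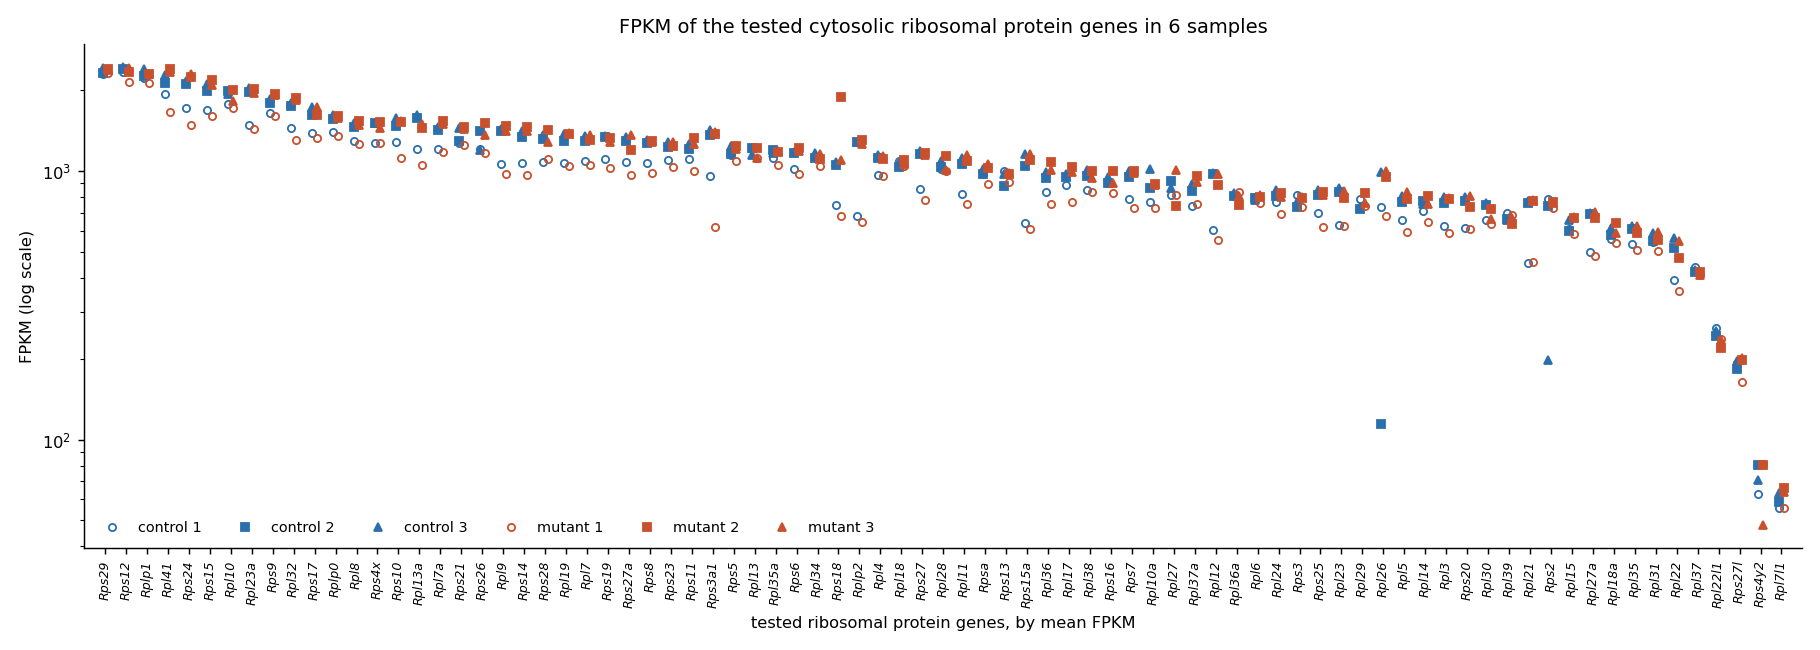
FPKM on a log scale (y axis) of the 81 tested members, ordered by mean FPKM (x axis). Each point is 1 sample, with controls in blue and mutants in orange, replicate 1 as open circles, replicate 2 as squares and replicate 3 as triangles. The open circles lie under the filled symbols for most genes, and single samples stand far from the rest for *Rps18* (mutant replicate 2, 1891), *Rpl26* (control replicate 2, 114) and *Rps2* (control replicate 3, 198).

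In the deposited rows the highest member was *Rps29*, which encodes a small zinc-binding protein of the 40S head. It was listed at 2306, 2317 and 2429 FPKM in controls and 2328, 2411 and 2392 in mutants. *Rps12*, another 40S gene, was listed at 2336, 2412 and 2448 in controls and 2154, 2350 and 2425 in mutants. *Rplp1*, *Rpl41* and *Rps24* followed with mean FPKM of 2295 ± 99.3, 2116 ± 175.9 and 2002 ± 244.5 (SD, n = 3) in controls and 2250 ± 95.6, 2135 ± 412.3 and 2008 ± 457.5 in mutants. Control and mutant means differed by less than the SD of either group for *Rps29*, *Rplp1*, *Rpl41* and *Rps24*, and by less than the mutant SD for *Rps12*. The paper lists a transcript of *Rps24* as alternatively spliced and higher in mutants. Values per gene, as used here, do not show shifts between transcripts of a gene. The lowest core members were *Rpl37* and *Rpl22*, and only the 4 tested paralogs and pseudogenes, *Rpl22l1*, *Rps27l*, *Rps4y2* and *Rpl7l1*, lay under them.

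The stalk proteins form the lateral arm of the large subunit that recruits elongation factors. *Rplp0*, the base of the stalk, was listed at 1401, 1567 and 1621 FPKM in controls and at 1354, 1608 and 1585 in mutants. *Rplp1* varied little. *Rplp2*, the partner of *Rplp1*, stood at 682 and 646 in the first replicates of the 2 groups and between 1264 and 1306 in the other 4 samples. The groups overlapped for all 3 stalk genes.

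To ask whether these genes differed between the genotypes, control and mutant samples were compared with limma on log2(FPKM + 1). No member passed an adjusted p of 0.05, where the share over all genes tested was 0.00%. At an unadjusted p under 0.05, limma called 0 of 81 members, against 1.66% of all genes tested (0.706% higher and 0.954% lower in mutants). The smallest p among members was 0.159. The median log2 fold change of the members was -0.02, where the median over all tested genes was 0.01, and the median size of the change, regardless of sign, was 0.03 for members and 0.05 for all genes. By subunit the medians were -0.01 for 31 40S genes, -0.02 for 43 60S genes and -0.03 for the 3 stalk genes. For 74 of 81 members the estimate lay within 0.1 of 0.

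These estimates set a limit on what difference in FPKM of the whole tissue could have been missed. A difference confined to cells with Cre activity would be diluted by the other cells. FPKM is scaled to all mapped fragments, so a shift shared by all genes would not show. The 95% interval of the log2 fold change extended a median of 0.33 to either side, with a range over members from 0.19 to 1.76. It lay within 0.5 of 0 for 68 members and within 1 of 0 for 77. With the replicate number as a block, the interval extended a median of 0.16 to either side, from 0.12 to 1.51, and lay within 0.5 of 0 for 77 members. The block treats equal numbers as pairs, which the values set apart only for number 1. How small a difference could be detected therefore differed between the fits.

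Direction was not stable. The log2 fold change was above 0 for 26 members and below 0 for 55, so 32.1% were above, against 52.8% of all genes tested. Quantile normalization gave 36 above and 45 below. Leaving out 1 sample gave 15, 45 and 58 members above 0 without control replicates 1, 2 and 3, and 72, 11 and 15 without mutant replicates 1, 2 and 3. With the mean of the Y-linked genes as a covariate, 69 of 81 were above 0. No direction for the group can be read from these counts.

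**Figure D2:**
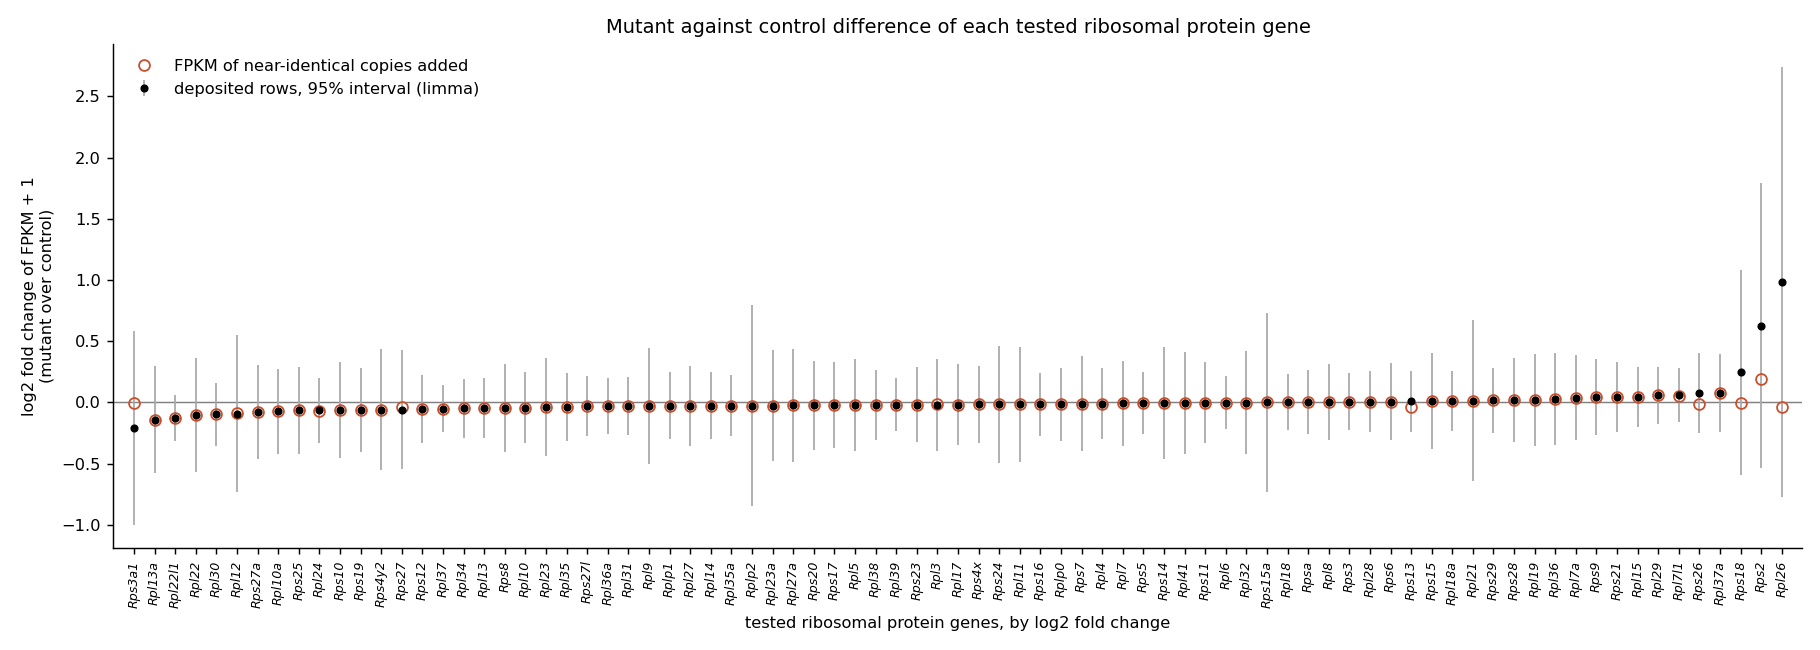
Log2 fold change of FPKM + 1, mutant over control (y axis), for the 81 tested members in order of size (x axis). Black points with grey bars are estimates with 95% intervals from limma on 3 samples per group, and open orange circles are the estimates after the FPKM of near-identical copies was added. All intervals include 0, and the 4 estimates farthest from 0 (*Rpl26*, *Rps2*, *Rps18* and *Rps3a1*) moved towards 0 when copies were added.

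*Rpl22l1*, which encodes a paralog of the 60S protein Rpl22, had the smallest p of all members. It was listed at 260, 243 and 253 FPKM in controls and 236, 220 and 235 in mutants. All 3 mutants lay under all 3 controls, by a small margin, with a log2 fold change of -0.13 (SE 0.081, 95% interval -0.32 to 0.06, exact two-sided permutation p = 0.10, the smallest this design allows). With the replicate number as a block, the p of *Rpl22l1* was 0.037 before adjustment, and it was then the 1 member called at that level, against 6.0% of all genes tested. *Rpl37*, a 60S gene named here after its values were seen, was the other member whose groups did not overlap, at 439, 422 and 427 in controls and 411, 420 and 411 in mutants. Mutants lay under controls in 2 of 81 members, where 2.37% of all tested genes did so, and they lay over controls in 0 members, against 2.63% of all. Both shares are near the background or under it.

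*Rpl30* and *Rpl13a*, both 60S genes, had the fourth and the fifth smallest p. *Rpl30* stood at 657, 749 and 759 FPKM in controls and 634, 724 and 664 in mutants (log2 fold change -0.10, SE 0.109, exact two-sided permutation p = 0.30). *Rpl13a*, whose protein also takes part in the interferon-induced GAIT translation control complex, stood at 1211, 1575 and 1617 in controls and 1054, 1449 and 1505 in mutants (log2 fold change -0.14, SE 0.186, exact two-sided permutation p = 0.50). The groups overlapped for both genes, and without mutant replicate 1 the estimate for *Rpl13a* was 0.02. Mutants lay under controls in each of the 3 pairs of samples with the same number for *Rpl30* and *Rpl13a*, and with the replicate block the SEs were 0.0596 and 0.0624, with neither gene past an unadjusted p of 0.05.

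The largest rise belonged to *Rpl26*, which encodes a 60S protein near the exit of the peptide tunnel and also binds p53 mRNA. Its FPKM was 734, 114 and 996 in controls and 678, 955 and 1002 in mutants, so control replicate 2 alone was low (log2 fold change 0.98, SE 0.746, 95% interval -0.77 to 2.74). In the same sample its copy *Gm15772* was listed at 1733, against 650 to 895 in the other 5. The sum of *Rpl26* and its 7 copies was 1417, 1848 and 1891 in controls and 1329, 1808 and 1898 in mutants. On that sum control replicate 2 lay beside the other samples that are not first replicates, and the log2 fold change was -0.04. Without control replicate 2 the log2 fold change of *Rpl26* itself was 0.02. The sequences shown above differ by a single base in this stretch.

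*Rps18*, a 40S gene of the head, had the third largest rise and the mirror image of that pattern. Its FPKM was 746, 1058 and 1081 in controls and 681, 1891 and 1105 in mutants, so mutant replicate 2 alone was high (log2 fold change 0.25, SE 0.356, 95% interval -0.59 to 1.09). In that sample *Gm10260* was listed at 4.31, against 367 to 634 in the other 5, and *Gm11361* at 1.53, against 83.2 to 137.4. The sum of *Rps18* and its 8 copies was 1244, 1778 and 1847 in controls and 1132, 1898 and 1878 in mutants. The log2 fold change of the sum was -0.01, and that of *Rps18* itself without mutant replicate 2 was -0.13.

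The largest fall was that of *Rps3a1*, which encodes a 40S protein of the platform. It was listed at 958, 1363 and 1425 FPKM in controls and 619, 1382 and 1404 in mutants, so mutant replicate 1 alone set the difference (log2 fold change -0.21, SE 0.336, 95% interval -1.0 to 0.58). In that sample *Rps3a2* stood at 195.8 and *Rps3a3* at 131.5, while neither exceeded 1.20 in any of the other 5. Neither pseudogene passed the expression filter. The sum of *Rps3a1* and its 4 copies was 960, 1365 and 1427 in controls and 946, 1384 and 1405 in mutants. The log2 fold change of this sum was -0.01, while *Rps3a1* alone gave 0.18 when mutant replicate 1 was left out.

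*Rps26*, one of the genes mutated in Diamond-Blackfan anaemia, showed the same exchange in both groups. Its copy *Rps26-ps1* was listed at 212, 0.504 and 233 FPKM in controls and 202, 1.32 and 1.48 in mutants. The gene itself stood at 1210, 1411 and 1201 in controls and 1166, 1512 and 1360 in mutants, and it was lowest in the 3 samples where the copy was high. With 2 copies added, all 6 samples lay between 1362 and 1514. *Rps13*, named after its values were seen, was lowest in control replicate 2 (880, against 911 to 1005), the only sample in which *Rps13-ps1* was listed above 1 (95.1).

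**Figure D3:**
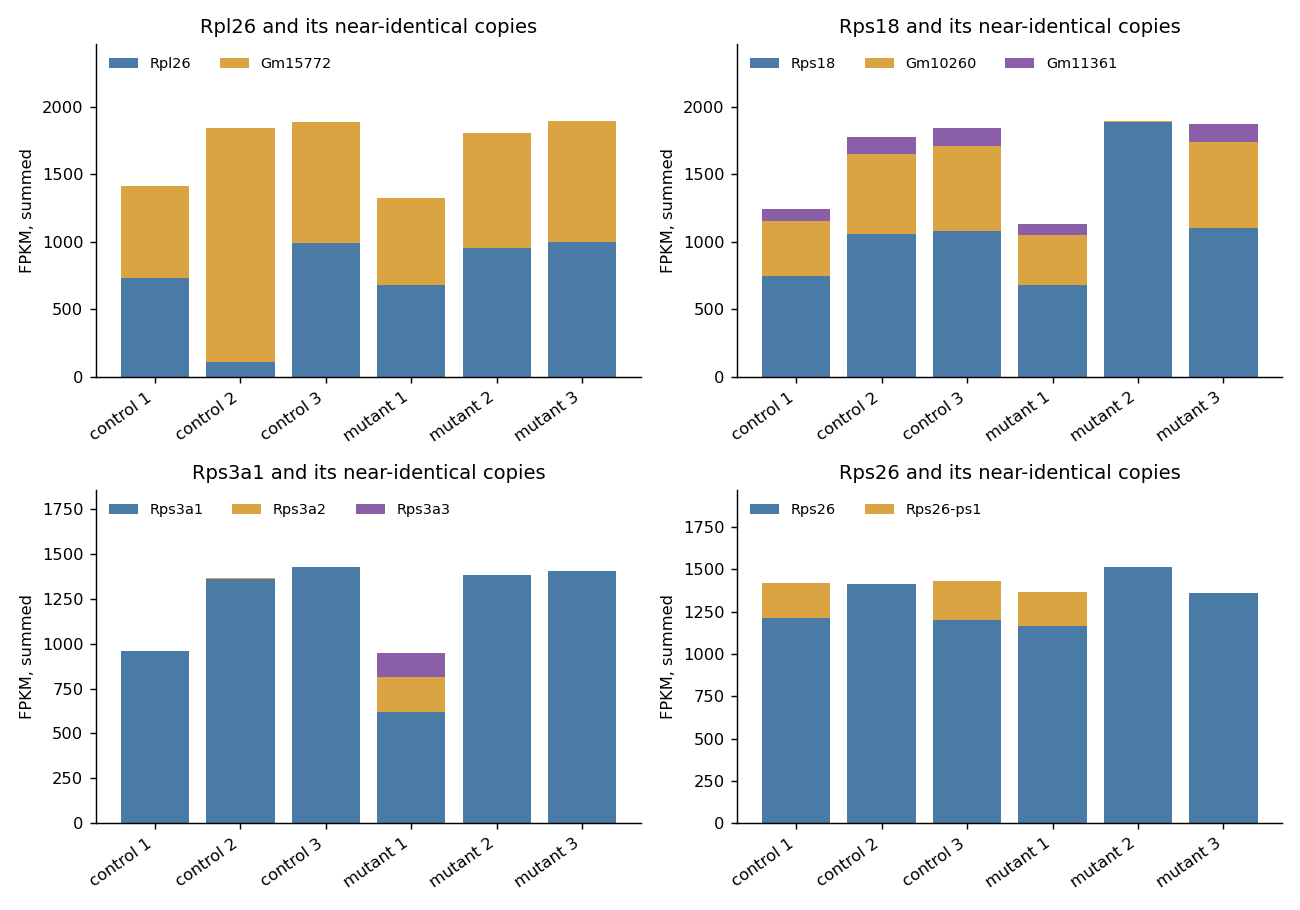
FPKM (y axis) of *Rpl26*, *Rps18*, *Rps3a1* and *Rps26*, each stacked with its near-identical copies above an FPKM of 20, in the 6 samples (x axis). Each bar is 1 sample, blue is the gene and yellow and purple are copies. The split between gene and copy differs in 1 sample for *Rpl26*, *Rps18* and *Rps3a1* and in samples of both groups for *Rps26*, while the sums of *Rpl26* and its copies (1848 in control replicate 2 and 1808 in mutant replicate 2) stay close.

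*Rps2*, which encodes a 40S protein at the mRNA entry channel, had the second largest rise and did not follow the others. Its FPKM was 790, 740 and 198 in controls and 732, 769 and 760 in mutants, so control replicate 3 alone was low (log2 fold change 0.63, SE 0.494, 95% interval -0.54 to 1.79). *Rps2-ps10* was highest in that sample, at 410 against 196 to 241 in the other 5. The sum of *Rps2* and its 30 copies was 613 in control replicate 3 and 932 to 1036 elsewhere, so the low value was only partly made up, and the log2 fold change of the sum was 0.19. Without control replicate 3, *Rps2* itself gave -0.02.

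Outside such cases the members were steady over replicates 2 and 3. Over replicates 2 and 3 of both groups, the coefficient of variation of FPKM had a median of 3.5% over the 80 tested members that could be searched, and 76 of them were under 10%. Over all 10061 tested genes, most of them at far lower FPKM, the median was 6.10% and 78.5% were under 10%. The coefficient exceeded 25% for 3 members, *Rpl26* (56.8%), *Rps2* (45.3%) and *Rps18* (31.6%), and for 2.39% of all tested genes. With copies added, these values were 2.25%, 21.0% and 2.84%, and 0 members exceeded 25%. Of 12 copies that exceeded 20 FPKM in a sample, 6 differed more than 10-fold between samples (*Rps13-ps1*, *Rps3a3*, *Rps26-ps1*, *Rps3a2*, *Gm10260* and *Gm11361*). FPKM values of a gene and of a copy rest on different annotated lengths, so their sum is an approximation. How reads that match both were assigned is not given in the sources used here, and whether the copy values reflect transcripts of the copies was not tested.

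Other copies held a steady level. *Gm9846*, with a coding sequence identical to that of *Rps27*, was listed at 1374 to 1959 FPKM, above *Rps27* itself at 780 to 1191. *Rpl3-ps1* stood at 183 to 258, beside *Rpl3* at 589 to 801. The levels of these genes are therefore uncertain as absolute values in all 6 samples. With copies added, *Rps27* was at 2154 to 3128 and *Rps29* at 2306 to 2429, so the ranking of members by FPKM is uncertain too.

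Samples with the replicate number 1 stood apart in both groups for most members. In 62 of 81 members, replicate 1 was the lowest sample of its group in controls and in mutants alike, against 38.3% of all tested genes, and in 2 members it was the highest in both, against 21.9%. The median difference between replicate 1 and the mean of the others was -0.21 on the log2(FPKM + 1) scale in controls and -0.29 in mutants, where the medians over all tested genes were -0.05 and -0.06. *Rplp2* lay farthest below the others in controls, at -0.91, with -0.99 in mutants. *Rps15a* (642 and 610 FPKM in the first replicates, 1046 to 1163 in the others) and *Rpl21* (456 and 460, against 758 to 779) behaved alike, and both are named after their values were seen. *Rps29*, *Rpl36a* and *Rpl6* differed little, and *Rpl6*, also named afterwards, lay between 759 and 814 in all samples. The labels give no batch that sets the first replicates apart, and the methods state that all libraries were sequenced together. Mitochondrially encoded genes went the opposite way, as given above, and erythroid markers summed to 10564 and 10607 in the 2 first replicates and to 5217 to 11107 in the others. Their part in this difference was not tested.

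**Figure D4:**
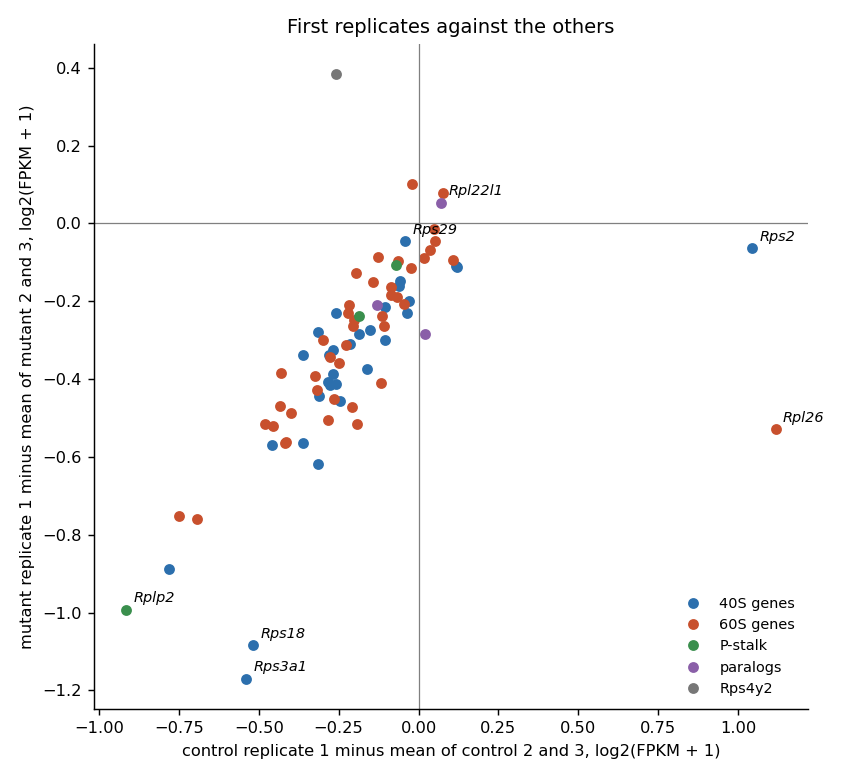
Difference between replicate 1 and the mean of replicates 2 and 3 on the log2(FPKM + 1) scale, in controls (x axis) and in mutants (y axis), for the 81 tested members. Each point is a gene, coloured by its place in the ribosome. Most points lie in the lower left, lower in both first replicates, and *Rpl26* and *Rps2* lie to the right, each with 1 low control sample.

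Within these sets the genotypes were compared apart. Between the first replicates alone, 73 of 81 members were lower in the mutant, against 54.6% of all tested genes, with a median difference of -0.08 for members and -0.01 for all. Over replicates 2 and 3, 34 members were lower in mutants, against 45.7% of all tested genes, and the median was 0.02. The first pair holds 1 sample a group and has no replicate check.

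As a single value per sample, members held 14.3%, 15.8% and 16.1% of the summed FPKM in controls and 14.1%, 16.4% and 15.7% in mutants. The means were 15.4% ± 0.971 and 15.4% ± 1.2 (SD, n = 3), and the groups overlapped (exact two-sided permutation test, p = 1.0, where the smallest p that 3 against 3 samples allow is 0.10). Without mitochondrially encoded and globin genes in the total, the means were 16.7% and 16.6%. The balance between subunits in the deposited rows also overlapped between groups. Summed FPKM of the 40S members was 82.4% to 84.4% of that of the 60S and stalk members in controls and 82.3% to 86.0% in mutants (exact two-sided permutation test, p = 0.70). The ratio was lowest in control replicate 3 and mutant replicate 1, where *Rps2* and *Rps3a1* were low. It was highest in mutant replicate 2, where *Rps18* was high. It was not computed with copies added, so the part of the copies in it was not tested.

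Paralogs can replace a ribosomal protein in some ribosomes, so each was set beside its partner. *Rpl22l1* reached 66.0%, 46.9% and 44.8% of the FPKM of *Rpl22* in controls and 66.3%, 46.5% and 42.7% in mutants. The difference in means was -0.75 percentage points, with p = 0.80 by the exact two-sided permutation test, and the first replicates of both groups were the high ones, where *Rpl22* was low (394 and 356 FPKM, against 474 to 564). *Rps27l*, a p53 target gene, was at 15.8% to 22.5% of *Rps27* in controls and 16.9% to 20.9% in mutants. *Rpl7l1* was at 4.52% to 5.08% of *Rpl7* in controls and 4.64% to 5.29% in mutants. *Rpl36al*, an autosomal paralog of the X-linked *Rpl36a* that the name rule leaves out, was listed at 240 to 289 FPKM, and *Rpl36a* at 751 to 837. *Rps4y2*, which GENCODE M21 calls *Rps4l* and classes as a pseudogene, was listed at 62.7, 80.4 and 70.6 in controls and 81.3, 80.3 and 48.0 in mutants, beside 1269 to 1528 for *Rps4x*.

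The tissue-restricted paralogs were barely listed. *Rpl39l*, known from testis, stood at 0.573 to 1.71 FPKM beside 638 to 697 for *Rpl39*. *Rpl10l*, also a testis gene, and *Rpl3l*, a striated muscle gene, were listed at 0 in all 6 samples, beside 1722 to 2008 for *Rpl10*. *Rps12l1* and *Rps12l2* did not exceed 0.33. These and the pseudogenes *Rps3a2* and *Rps3a3* are the 7 members that did not pass the filter.

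Several members are known for their part in anaemia, in p53 control or in skeletal patterning. *Rpl5* and *Rpl11*, which with 5S ribosomal RNA bind Mdm2, were at 746 ± 79.4 and 1002 ± 160.0 (SD, n = 3) in controls and 740 ± 129.1 and 999 ± 211.0 in mutants. *Rps19*, the gene most often mutated in Diamond-Blackfan anaemia, was at 1266 ± 137.8 and 1215 ± 159.8. *Rps7*, mutated in the same disease and in a mouse line with skeletal defects, was at 912 ± 113.5 and 909 ± 153.0. *Rpl38*, the gene of the tail-short mouse with vertebral and facial defects, was at 940 ± 84.5 and 926 ± 81.3. *Rpsa*, mutated in isolated congenital asplenia, was at 992 ± 26.4 and 996 ± 91.3. For each of these 6 genes the group means differed by less than the SD of either group.

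The row named *Rpl24*, the gene of the belly spot and tail mouse, was at 807 ± 42.0 (SD, n = 3) in controls and 774 ± 73.6 in mutants. Its identifier belongs to the neighbouring gene *Zbtb11* in GENCODE M21, so which gene the value describes is uncertain. In all, 3 members had another symbol in GENCODE M21.

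Genes around the ribosome were read from the same fit. None of 10 elongation factors, 67 ribosome assembly factors or 12 genes of RNA polymerase I reached an unadjusted p under 0.05 by limma. Neither did any of 21 regulators of ribosomal protein expression or 76 mitochondrial ribosomal protein genes, in either direction. The share over all genes tested was 1.66%, so few calls would be met in lists of these sizes. The medians were 0.01 for each of these 5 lists, and the genes with the smallest p in them were *Eef1e1*, *Rcl1*, *Taf1a*, *Mnt* and *Mrpl55*. Of 32 initiation factors, 0 rose and 2 were lower at an unadjusted p under 0.05, with 0 past the adjusted threshold, beside the background share of lower genes given above. These were *Eif4ebp1*, the repressor of eIF4E that acts under mTOR (26.9, 28.0 and 27.6 FPKM in controls, 23.2, 24.1 and 25 in mutants), and *Eif4a2*, an RNA helicase of the cap-binding complex (195, 189 and 165 in controls, 164, 148 and 146 in mutants). The groups did not overlap for either gene. The median difference of the first replicates from the other samples was -0.25 for assembly factors and -0.19 for mitochondrial ribosomal protein genes on the log2(FPKM + 1) scale.

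Sequence features that the name rule did not use are given as a description. The Rbfox binding motif TGCATG was present in the coding sequence of 8 of 80 members, or 10%, and of 30% of 9776 tested genes, but coding sequences of members are short, with a median of 454.5 bases against 1356. Per kilobase of coding sequence the motif occurred 0.221 times in members and 0.235 times in all, and the reverse complement CATGCA 0.343 and 0.301 times. Introns, where Rbfox proteins mostly bind, were not searched.

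Annotated transcription starts were taken from RefSeq promoter windows on GRCm38.p6, which hold 63 of the 88 members. In the window from 10 bases before to 20 bases after a start, CTTTC, a piece of many TOP tracts that was chosen after the windows were seen, occurred on the sense strand in 15 of the 63 genes, or 23.8%, against 4.43% of 27025 genes. Its reverse complement occurred in 4.76% and 4.31%. Because the motif was chosen from these windows, the shares describe them and do not test enrichment. A match anywhere in the window counted, also before the start, as in *Rpl7a*. Whether the motif relates to the differences between samples was not tested. Of the members with a match, 5 with a high mean FPKM are shown 5′ to 3′ with the motif in capitals. They are examples and not a full ranking, because not every member with a match was considered for display.
Rps10 (chr17:27635225-27635254, minus strand): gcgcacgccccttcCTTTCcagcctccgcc
Rpl13a (chr7:45128726-45128755, minus strand): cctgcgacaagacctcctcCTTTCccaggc
Rpl7a (chr2:26910797-26910826, plus strand): ctcttCTTTCtttctccagcagccgagcaa
Rps26 (chr10:128626487-128626516, minus strand): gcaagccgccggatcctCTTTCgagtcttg
Rpl35a (chr16:33056472-33056501, plus strand): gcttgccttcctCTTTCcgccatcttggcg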

How the data were processed

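RNA-Seq of craniofacial tissue from 3 control and 3 *Rbfox2* mutant embryos was analysed. The authors prepared stranded poly(A)+ libraries, aligned reads to GRCm38 with STAR and deposited FPKM values per gene and sample. The submitters' notes also name FastQC 0.11.4 and Cuffdiff. The annotation release and the step that made the gene table are not given in the sources used here. Single-sample and joint tables were identical (0 differences). FPKM keeps no read counts, so counting error is unknown.

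Genes over 5 FPKM in all controls or all mutants were kept and log2(FPKM + 1) was compared with limma 3.58.1 (R 4.3.3, intensity trend, no covariates), adjusted by Benjamini-Hochberg over 10061 genes. The script was tested on simulated data. Single values were compared by exact two-sided permutation. Samples were called replicates as labelled, and the labels state independent biological replicates. Identifiers were matched to GENCODE M21 (95.3% found), and coordinates are from it. Copies were found with BLAST 2.17.0, required to fill at least 50% of the copy's transcript, and their FPKM summed with that of the member.

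The members, the gene lists and the rule for named genes were chosen with earlier results of these data known. Named members are the 5 highest, the 3 lowest tested, the 5 with the smallest p, the 3 largest rises and falls, the stalk genes, paralog pairs, genes with a disease background and members not tested, with the smallest p of each other list, 1 of which is not reported here. Deviations from group means correlated at 0.64, 0.26 and 0.51 between samples numbered 1, 2 and 3 across genes. Across numbers, control 3 correlated with mutant 2 at 0.40 and control 2 with mutant 3 at 0.23. Only number 1 was thus set apart as a pair, from these values. For numbers 2 and 3 the replicate block assumes a pairing that these values do not single out. Alternatives were the replicate block, other pseudocounts, scalings and filters, no trend, a term for the first replicates, a Y-linked covariate, replicates 2 and 3 only, each sample left out and, added after the data were seen, near-identical copies summed.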

Additional observations from a re-analysis of the deposited data

How the results depend on the processing

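The count of members past an adjusted p of 0.05 was 0 under all 18 alternatives. At an unadjusted p under 0.05 the count of 0 became 1 with the replicate block (*Rpl22l1*), 2 with a term for the first replicates (*Rpl22l1* and *Rpl13a*, where 6.07% of all genes tested passed), 1 with the Y-linked covariate (*Rps4y2*, 1.75%) and 1 with no filter (*Rpl22l1*, 2.10%), and it was 0 with each sample left out. The block changed no other call. The median log2 fold change of the members ranged from -0.08 to 0.09 with a sample left out. The difference in the members' share of the summed FPKM, 0.053 percentage points, ranged from -0.50 to 0.71 with a sample left out, and was -0.081 without mitochondrially encoded and globin genes and -0.079 with copies added. The difference in *Rpl22l1* as a percent of *Rpl22* ranged from -7.99 to 5.98 with a sample left out. On the log2 scale, *Rpl26* (-0.039) and *Rps18* (-0.0061) turned to the other side of 0 with copies added, and *Rpl13a* (0.053) and *Rps3a1* (0.20) with the Y-linked covariate. With a sample left out, *Rps2* ranged from -0.022 to 0.97, *Rpl13a* from -0.27 to 0.021, *Rps18* from -0.13 to 0.61, *Rps3a1* from -0.41 to 0.18 and *Rpl26* from 0.018 to 1.58. The samples that turned the direction were control replicate 3 for *Rps2*, mutant replicate 2 for *Rps18* and mutant replicate 1 for *Rpl13a* and *Rps3a1*. With 3 samples a group and no counts, how small a change could be resolved depended on whether the block was fitted.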

Other observations

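Marker lists of other cell types were summed per sample. No listed marker was at 0 in every sample in these lists, and no marker passed an adjusted p of 0.05. Of 12 neuronal markers, 11 had an estimate above 0, against 52.8% of all tested genes. At an unadjusted p under 0.05 by limma, 4 were higher (*Elavl3*, *Map2*, *Dcx* and *Tubb3*), against 0.706% of all tested genes. For 5 of the 12, all mutants lay above all controls, against 2.63% of all. The 12 markers summed to 964 to 1070 FPKM in controls and 1147 to 1236 in mutants (exact two-sided permutation test, p = 0.10, the smallest possible). Skeletal muscle markers summed to 192 to 520 in controls and 184 to 293 in mutants, and 7 of 8 tested were lowest in replicate 1 of both groups. Choroid plexus markers summed to 22.9 to 91.7 in controls and 50.5 to 103 in mutants, forebrain progenitor markers to 370 to 633 and 527 to 667, epithelial markers to 165 to 277 and 171 to 224, endothelial markers to 153 to 177 and 153 to 168, cartilage and bone markers to 206 to 295 and 195 to 268, and macrophage markers to 50.4 to 60.4 and 50.4 to 66.0. Proliferation markers, to which ribosome production is tied as background, summed to 1033 to 1299 and 997 to 1349, and 11 of 13 were lowest in replicate 1 of both groups. Outside the neuronal list, 2 markers passed that level, *Egfl7* of endothelium and *Col1a1* of cranial mesenchyme, both lower in mutants. The smallest p of the other lists belonged to *Lhx2*, *Ttr*, *Hbb-y*, *Myod1*, *Trp63*, *Runx2*, *C1qb* and *Plk1*. All 14 tested mitochondrially encoded genes had an estimate below 0, against 4750 of 10061 tested genes, with a median log2 fold change of -0.50. The sum over all 37 listed, given above, overlapped between the groups (exact two-sided permutation test, p = 0.60). Of the 14 tested genes, 2 were lower in mutants at that level, *mt-Rnr1* and *mt-Rnr2*, against 0.954% of all tested genes. The part of these lists in the values of the ribosomal protein genes was not tested.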
